A study of Mus musculus with 8 samples.

Results

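The genes described here are the immunoglobulin variable (V) segments, the part of an antibody gene that binds antigen. Every row of the count table whose symbol starts with Ighv (heavy chain), Igkv (kappa light chain) or Iglv (lambda light chain) was taken, which gave 169 of 19669 rows: 87 Ighv, 79 Igkv and 3 Iglv. They were followed in plasma cells, defined as cells with at least 20 unique molecular identifiers (UMIs, each standing for 1 captured RNA molecule) of Jchain and at least 3 of Mzb1. The rule gave 290 plasma cells among 24942 cells (1.16%, exact 95% interval 1.03 to 1.30%). Intervals here cover counting error only.

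The study took erythroblastic islands, in which red cell precursors surround a macrophage, from male Sle1.Yaa mice, a lupus-prone strain, and sequenced their cells on the 10x Genomics v3.1 platform. Per the labels, mice with a human TLR8 transgene (group Anemic) gave 2 bone marrow and 2 spleen libraries, and Sle1.Yaa controls without it (group Non-Anemic) gave 3 bone marrow libraries and 1 spleen library. The labels state neither the age of the mice nor the promoter of the transgene. The table names its columns by cell barcode alone, so no cell could be placed in a tissue or genotype, no comparison between transgenic and control mice was made, and all cells count as 1 pooled sample. Barcodes fell into 8 alphabetically sorted runs of 447 to 6787 cells, which are used as unnamed libraries. They are neither replicates nor groups.

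Each developing B cell joins 1 of many V segments to a diversity and a joining segment for its heavy chain, and 1 V segment to a joining segment for its light chain, so that a mature cell and its daughters normally carry 1 productive heavy and 1 productive light V segment. Heavy chain segments lie on mouse chromosome 12, kappa on chromosome 6 and lambda on chromosome 16. Most mouse antibodies use kappa. Plasma cells, the antibody-secreting end stage, settle in bone marrow and spleen and fill much of their RNA with immunoglobulin. The v3.1 chemistry captures RNA by its poly(A) tail, next to the constant region and at the far end from the V segment.

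The last bases of the V exon of 7 segments on which the results turn are given here, 5′ to 3′ on the coding strand, from GENCODE release M21 transcripts for GRCm38 (mm10). Iglv1 (chr16:19085017-19085316, minus strand) and Iglv2 (chr16:19260401-19260700, minus strand) are set together because Iglv1 was counted in most kappa plasma cells. Capitals mark the 8 of 300 bases at which they differ.
Iglv1: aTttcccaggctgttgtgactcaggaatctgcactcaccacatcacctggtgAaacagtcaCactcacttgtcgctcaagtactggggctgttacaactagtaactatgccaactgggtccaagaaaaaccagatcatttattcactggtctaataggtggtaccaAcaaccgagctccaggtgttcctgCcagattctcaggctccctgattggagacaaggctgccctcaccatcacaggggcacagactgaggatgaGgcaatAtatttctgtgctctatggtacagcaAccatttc
Iglv2: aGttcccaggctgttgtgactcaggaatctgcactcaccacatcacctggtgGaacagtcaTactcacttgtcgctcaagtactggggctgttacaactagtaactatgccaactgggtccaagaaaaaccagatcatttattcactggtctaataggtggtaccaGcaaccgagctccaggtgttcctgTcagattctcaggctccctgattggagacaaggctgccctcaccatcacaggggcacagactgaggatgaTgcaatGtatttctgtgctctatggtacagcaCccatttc
Ighv1-82 (chr12:115952538-115952837, minus strand) and Igkv3-1 (chr6:70703878-70704177, plus strand) formed the heavy and light pair found in the most cells of any run under the looser definition below, and tied with another pair under the stricter one. Capitals mark the codon of the conserved cysteine before the joining site.
Ighv1-82: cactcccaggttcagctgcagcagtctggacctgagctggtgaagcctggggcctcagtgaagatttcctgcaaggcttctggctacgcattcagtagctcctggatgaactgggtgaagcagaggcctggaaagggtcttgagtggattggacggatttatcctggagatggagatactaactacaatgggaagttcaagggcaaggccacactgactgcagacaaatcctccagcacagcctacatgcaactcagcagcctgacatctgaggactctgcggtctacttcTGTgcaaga
Igkv3-1: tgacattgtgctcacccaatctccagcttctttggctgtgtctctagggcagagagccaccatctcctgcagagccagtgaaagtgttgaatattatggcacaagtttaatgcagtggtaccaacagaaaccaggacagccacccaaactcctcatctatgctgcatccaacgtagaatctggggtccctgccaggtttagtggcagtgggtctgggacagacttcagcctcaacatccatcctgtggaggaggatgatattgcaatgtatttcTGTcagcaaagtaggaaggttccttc
Ighv1-26 (chr12:114788372-114788671, minus strand) had the most Ighv UMIs, 2 to 6, in 3 cells that each held both Igkv12-44 (chr6:69814631-69814928, minus strand) and Igkv5-39 (chr6:69900424-69900721, minus strand), with the same codon in capitals.
Ighv1-26: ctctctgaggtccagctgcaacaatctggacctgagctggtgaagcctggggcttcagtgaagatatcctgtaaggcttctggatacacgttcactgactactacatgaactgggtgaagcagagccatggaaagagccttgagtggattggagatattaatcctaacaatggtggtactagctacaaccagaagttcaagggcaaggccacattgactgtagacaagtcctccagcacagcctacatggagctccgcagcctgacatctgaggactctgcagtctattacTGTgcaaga
Igkv12-44: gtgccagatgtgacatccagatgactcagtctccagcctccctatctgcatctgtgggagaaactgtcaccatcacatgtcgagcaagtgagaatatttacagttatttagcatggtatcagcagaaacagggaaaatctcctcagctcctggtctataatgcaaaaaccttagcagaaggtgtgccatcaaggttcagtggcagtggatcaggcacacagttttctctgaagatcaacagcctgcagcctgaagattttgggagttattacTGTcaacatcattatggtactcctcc
Igkv5-39: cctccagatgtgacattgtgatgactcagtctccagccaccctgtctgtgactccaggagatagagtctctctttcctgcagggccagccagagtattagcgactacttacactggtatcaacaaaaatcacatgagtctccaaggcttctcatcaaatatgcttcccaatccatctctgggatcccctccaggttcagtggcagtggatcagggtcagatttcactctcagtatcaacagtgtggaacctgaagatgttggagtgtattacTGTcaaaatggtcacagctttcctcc
Iglv1 and Iglv2 were 97.0% identical over the aligned V exon. Igkv12-44 and Igkv5-39 were 64.8% identical, so those 2 are not near copies of each other. The table gives a cell's count for a segment and not its sequence, so these are germline sequences and not those of the mice.

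The 290 cells carried the RNA of plasma cells beyond the genes that chose them. Xbp1, the transcription factor of the secretory programme, had a UMI in 286 cells, Sdc1, the plasma cell surface proteoglycan, in 259, and Tnfrsf17, the survival receptor BCMA, in 188. Pax5, which holds B cells in the B cell state, had a UMI in 1. The cells had a median of 23738 UMIs (599 to 83490). Globin above 20% of UMIs, or at least 20 UMIs of S100a8 and S100a9, was found in 77 of them, and the summed level of 8 erythroid markers ran from 180 to 24088 CPM, the UMIs of a gene scaled to a total of 1000000, over the runs, against 195963 CPM in all other cells. The 8 neutrophil markers summed to 36.9 to 9636 CPM over the runs, against 99195 CPM in all other cells. Without the 77 cells the median V count was 46 UMIs, against 64.5 with them, Iglv1 passed 10 UMIs in 51.6% of kappa cells, against 55.2%, and the median Ighv evenness, defined below, was 0.917, against 0.960. Some barcodes were shared, 287 of them occurring in more than 1 run (1031 cells), among them those of 36 plasma cells, 28 of which lay in run 8.

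V segments were a small share of plasma cell RNA, and nearly all V RNA of the table was in plasma cells. They held 31451 of the 33825 V UMIs counted in all cells. This was 0.423% of their 7438217 UMIs, whereas the constant regions were 52.8% and Igkc alone, the kappa constant region, 37.6%. A plasma cell had a median of 64.5 V UMIs, with quartiles of 28 and 139.5. Its median was 6 for all Ighv, 26 for all Igkv and 13 for all Iglv.

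Per plasma cell, the median V count was 248 UMIs in run 1 (15 plasma cells), 128.5 in run 2 (2), 134 in run 3 (43) and 112.5 in run 4 (36). It was 52.5 in run 5 (12), 29 in run 6 (93), 48 in run 7 (21) and 82.5 in run 8 (68). The cells of the 8 runs overlapped widely. Run 8 had few cells in all, and 15.2% of its 447 cells were plasma cells.

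**Figure D1:**
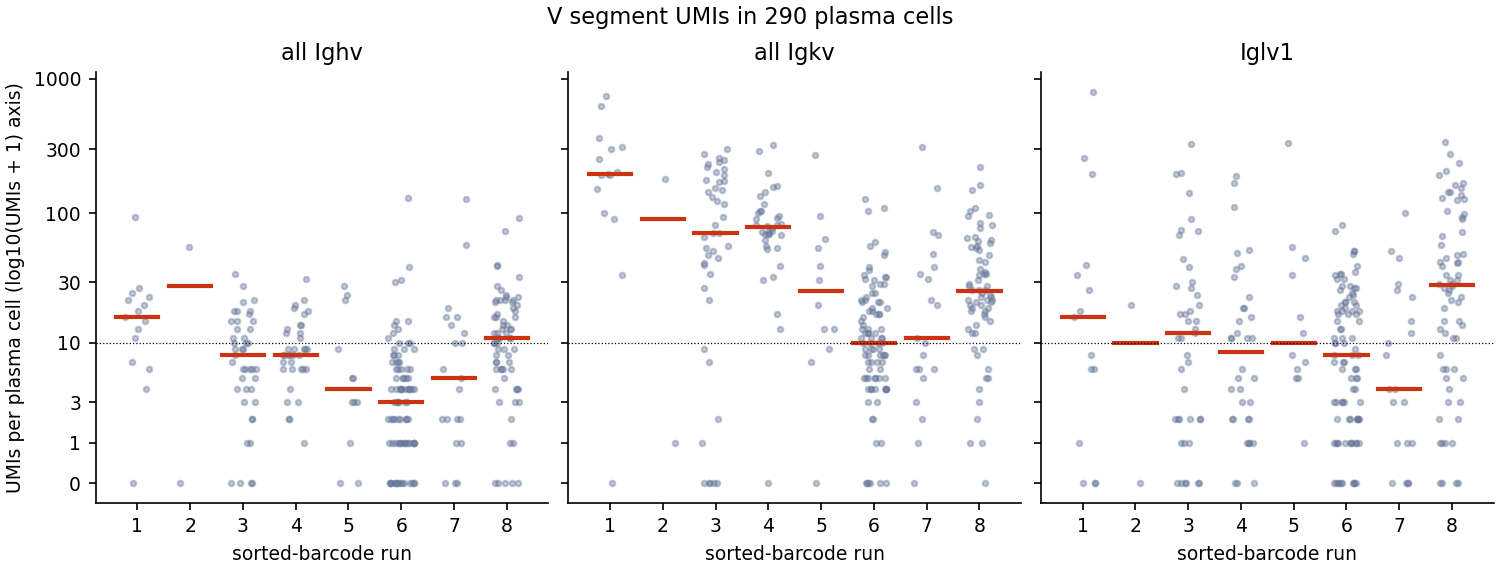
UMIs per plasma cell of all Ighv, all Igkv and Iglv1 (y axis, log10 of UMIs + 1) in the 8 sorted-barcode runs (x axis). Each point is 1 cell, red bars are medians and the dotted line is 10 UMIs. Igkv medians run from 10 UMIs in run 6 to 196 in run 1, while the Iglv1 medians stay between 4 and 28.5.

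The count of Igkv relative to its constant region differed between runs, and that of Ighv was split otherwise. Igkv UMIs per 100 Igkc UMIs were 1.84, 2.22, 1.41, 0.930 and 1.11 in runs 1 to 5, and 0.224, 0.378 and 0.300 in runs 6 to 8. The values of runs 6 to 8 all lay below those of runs 1 to 5. Ighv UMIs per 100 heavy chain constant UMIs were 0.426, 2.73, 0.240, 0.223 and 0.434 in runs 1 to 5, and 0.338, 0.342 and 0.295 in runs 6 to 8, which overlap. Run 2 rests on 2 cells. The median Igkc count was 7855, 10669 and 11418.5 UMIs in runs 6 to 8 and 13792, 4047.5, 6655, 9309.5 and 3412 UMIs in runs 1 to 5, which overlap. The median Igkv count was 10, 11 and 25.5 UMIs in runs 6 to 8 and 196, 90, 71, 78.5 and 25.5 in runs 1 to 5. The cause was not tested.

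**Figure D2:**
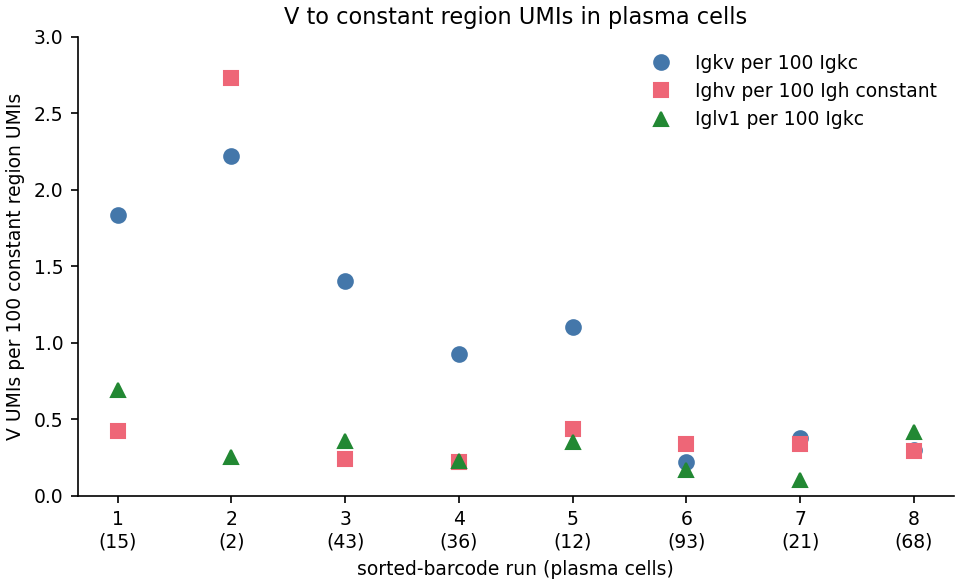
V UMIs per 100 constant region UMIs (y axis) in plasma cells of each run (x axis, plasma cells in brackets), for Igkv over Igkc, Ighv over all heavy chain constant regions, and Iglv1 over Igkc in kappa cells. Igkv lies between 0.930 and 2.22 in runs 1 to 5 and between 0.224 and 0.378 in runs 6 to 8.

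Where a V segment could be counted, a plasma cell almost always had 1 per chain. More than 10 UMIs of an Ighv segment were found in 92 cells: 90 had 1 such segment, 1 had 2 and 1 had 4. An Igkv segment passed 10 UMIs in 202 cells, of which 189 had 1 and 13 had 2. The leading segment held a median of 100% of its cell's Ighv UMIs and 99.3% of its Igkv UMIs. It held at least 90% in 87 of 92 cells for Ighv (94.6%, 87.8 to 98.2%) and in 174 of 202 for Igkv (86.1%, 80.6 to 90.6%). Exactly 1 heavy segment with exactly 1 segment of the cell's own light chain was found in 80 of 290 cells (27.6%, 22.5 to 33.1%). This share depends on the threshold: it was 47.9% with segments over 5 UMIs and 9.31% with segments over 20. Of the 59 kappa cells with no Igkv over 10, 58 still had an Igkv UMI. The median Igkc of the 59 was 7287 UMIs, and that of kappa cells with an Igkv over 10 was 10856. The share of kappa cells with an Igkv over 10 was 97.1%, 100%, 51.2%, 58.8% and 87.3% in runs 3, 4, 6, 7 and 8.

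Light chain type, read from the constant regions, was kappa in 280 plasma cells and lambda in 10 (3.45%, 1.67 to 6.25%), where Iglc1, Iglc2 and Iglc3 together exceeded Igkc. In what follows, kappa cells are the 261 with at least 1000 Igkc UMIs. The 10 lambda cells lay in runs 3 to 8. They had at most 2 Igkv UMIs each, and 53 or fewer Igkc UMIs. Of these, 8 were led by Iglv1 (11 to 334 UMIs), 1 by Iglv2 (84 UMIs, beside 53 of Iglv1, with 8011 Iglc2 UMIs) and 1 by Iglv3 (12 UMIs, with 1820 Iglc2 UMIs).

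Iglv1 broke the pattern of 1 light segment per cell. With 9955 UMIs it was 31.7% of all V UMIs in plasma cells, more than any other member, and it passed 10 UMIs in 154 cells although 10 cells were lambda. In kappa cells it had a median of 12 UMIs (0 to 802, quartiles 3 and 31). It passed 10 UMIs in 144 of the 261 (55.2%, 48.9 to 61.3%), and exceeded the leading Igkv segment in 77 (29.5%, 24.0 to 35.4%). Lambda cells had a median of 76 (3 to 334), and 9 of 10 passed 10 UMIs. Among kappa cells with exactly 1 Igkv over 10, Iglv1 passed 10 UMIs in 111 of 189 (58.7%).

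The cell with most Iglv1, in run 1, held 802 Iglv1 UMIs. It also held 26888 Igkc and 180 lambda constant UMIs, with 348 UMIs of Igkv3-10 and 26 of Ighv1-64, and its main heavy chain was Ighg2b. It was thus a kappa cell with a full heavy and kappa pair. The counts of Iglv1, Igkv1-110 and Igkv3-10 (802, 613 and 348 UMIs, all in run 1) were the highest of any V segment in 1 cell.

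In kappa cells Iglv1 had about as many UMIs as Iglc1, and Iglc2 had more. The median was 12 UMIs for both Iglv1 and Iglc1, 51 for Iglc2 and 11 for Iglc3. Iglv1 exceeded Iglc1 in 125 of 261 kappa cells (47.9%). In 31 kappa cells there was no Iglc1 UMI, and 18 of these had over 10 UMIs of Iglv1, up to 141. Over all kappa cells there were 95.1 Iglv1 UMIs per 100 Iglc1 UMIs, against 1.52 in the 5 lambda cells led by Iglc1. The latter cells were chosen for high Iglc1. Lambda cells led by Iglc2 or Iglc3 had 196, 53, 3, 11 and 101 Iglv1 UMIs beside 362, 79, 2, 319 and 6 Iglc1 UMIs. For comparison, Igkv was 0.631 per 100 Igkc in plasma cells.

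**Figure D3:**
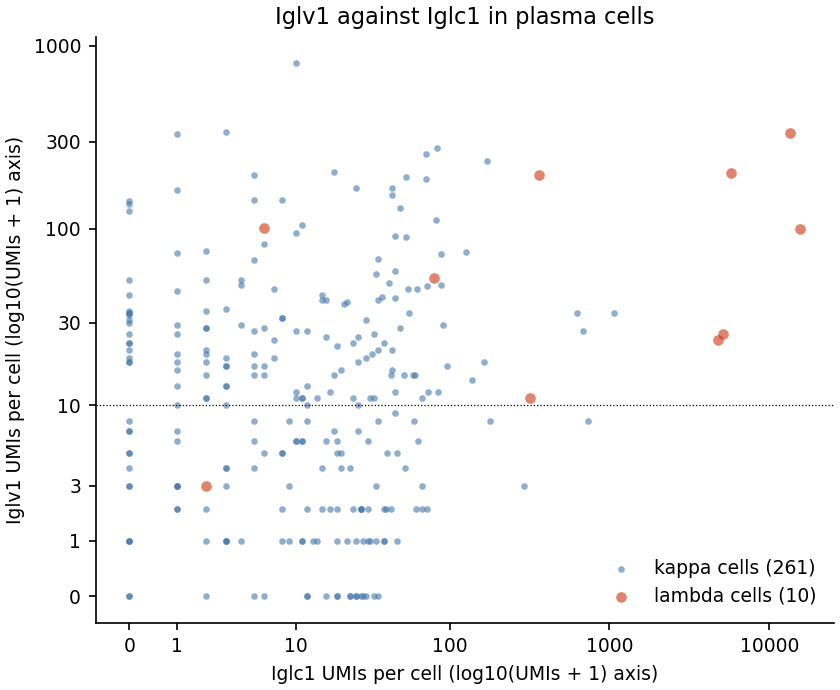
Iglv1 UMIs (y axis) against Iglc1 UMIs (x axis), both as log10 of UMIs + 1, in the 261 kappa and 10 lambda plasma cells. Each point is 1 cell and the dotted line is 10 Iglv1 UMIs; 18 kappa cells with 0 Iglc1 UMIs lie above it.

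Iglv1 was seen in kappa cells of every run. Its median there was 17 UMIs in run 1, 20 in run 2 (1 kappa cell), 15 in run 3, 6 in run 4 and 10 in run 5. It was 8 in runs 6 and 7 and 29 in run 8. The share of kappa cells over 10 UMIs was 62.9%, 48.6%, 43.0%, 41.2% and 74.6% in runs 3, 4, 6, 7 and 8. Outside plasma cells it was scarce. Its level was 1338 CPM in plasma cells, against 13.6 in B cells, 2.49 in pre-B cells, 0.373 in erythroid cells and 0.203 in neutrophils. An Iglv1 UMI was found in 89.3% of plasma cells, against 0.358% of erythroid cells, which do not make antibody and had a median of 8670 UMIs, and 4.94% of B cells, with a median of 5032. The pooled erythroid share is a background level. In run 8, where plasma cells were most frequent, the 51 erythroid cells held 2 Iglv1 and 6 Igkv UMIs, and in all 7261 erythroid cells there were 27 and 99.

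The other lambda members behaved differently from each other. Iglv3, 52.2% identical to Iglv1 over the V exon, had 641 UMIs and at least 1 in 174 plasma cells, but passed 10 in 8. Iglv2 had 105 UMIs, of which 84 were in 1 lambda cell and 21 in all other plasma cells together. Of the 154 cells with over 10 Iglv1 UMIs, 17 had an Iglv2 UMI.

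Kappa cells whose main heavy chain was IgG held more Iglv1 than those with IgM in each run where both could be read. The IgG and IgM medians were 19 and 2 UMIs in run 3, 35.5 and 4 in run 4, and 18 and 1 in run 6. They were 24.5 and 2.5 in run 7, and 32.5 and 22 in run 8. The cells of the 2 classes overlapped in every run. Per 100 Igkc, IgG and IgM cells had 0.451 and 0.210 in run 3, 0.649 and 0.0527 in run 4, 0.227 and 0.0264 in run 6, 0.173 and 0.0357 in run 7, and 0.503 and 0.285 in run 8. IgA cells had medians of 4 UMIs in run 4 and 4 in run 6, below IgG in both. Igkv did not share this order in every run: its median was 118 UMIs in IgG and 118 in IgM cells of run 3, 77 and 103 in run 4, 17 and 5 in run 6, 10.5 and 27 in run 7, and 25 and 34.5 in run 8. Pooled over runs, over 10 Iglv1 UMIs were found in 77.8% of 72 IgG2b, 64.9% of 37 IgG2c and 71.4% of 14 IgG1 kappa cells. The share was 83.3% of 6 IgG3, 40.4% of 52 IgA and 35% of 80 IgM kappa cells. These pooled shares mix class with run: 33 of the 52 IgA cells were in run 6. The Iglv1 median of all kappa cells was 8 UMIs in run 6 and 29 in run 8.

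**Figure D4:**
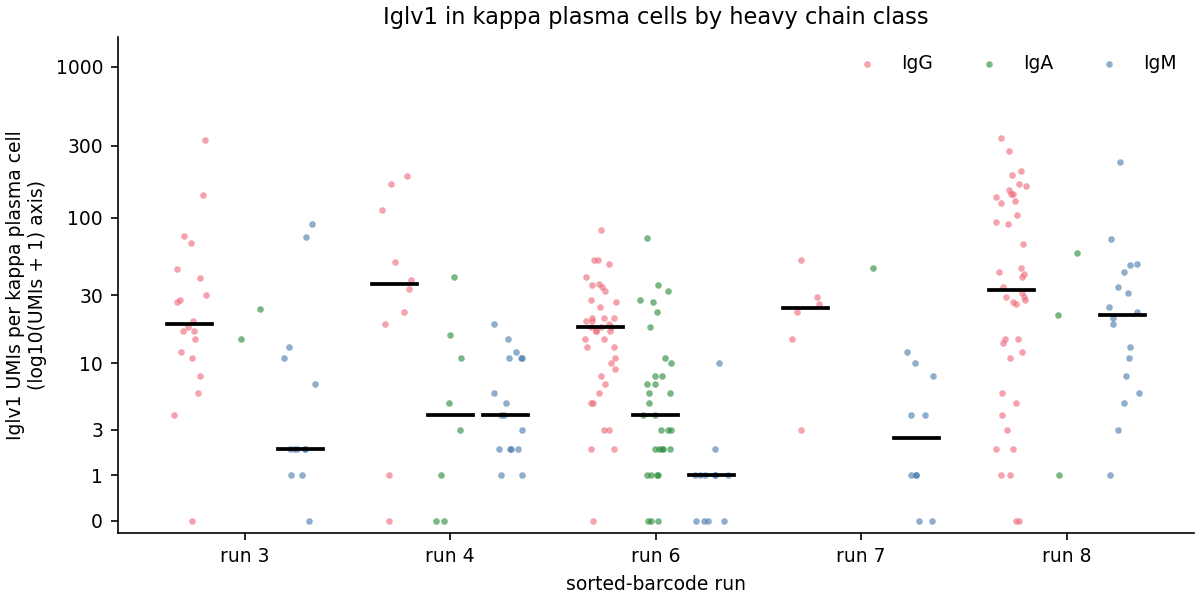
Iglv1 UMIs per kappa plasma cell (y axis, log10 of UMIs + 1) by main heavy chain class in the 5 runs with at least 20 plasma cells (x axis). Each point is 1 cell and black bars are medians of at least 5 cells; the IgG median lies above the IgM median in all 5 runs, by least in run 8 (32.5 and 22 UMIs).

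Of the heavy chain segments, 75 of 87 were seen in plasma cells and 41 led at least 1 cell, meaning that they had the most UMIs of the chain and over 10. Ighv1-82 (chr12:115952538-115953005, minus strand) led most, 12 of 92 cells. Of those, 7 were in run 8, 3 in run 6, and 1 each in runs 3 and 4. It had 358 UMIs, with at most 39 in a cell. Ighv1-80, Ighv1-53, Ighv9-3, Ighv1-81 and Ighv3-6 led 5 cells each, Ighv1-9 led 4 and Ighv4-1 led 3. All 5 cells led by Ighv3-6 were in run 8, and 3 of the 4 led by Ighv1-9 in run 4. Ighv4-1 had 215 UMIs, 127 of them in 1 lambda cell of run 7. The Ighv1 family was 55.2% of the Ighv rows and led 69.6% of the called cells. The 29 of 87 Ighv rows that lie farthest from Ighm, 1601 to 2577 kb away, led 49 of 92 cells (53.3%, 42.6 to 63.7%), and the 29 nearest led 21 (22.8%, 14.7 to 32.8%).

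For kappa, of 79 Igkv segments 69 were seen and 56 led at least 1 cell. Igkv19-93 (chr6:68736297-68736780, minus strand) led most, 15 of 202 cells, 5 of them in run 1, with 1772 UMIs and up to 312 in a cell. Without run 1, or without the 77 cells with globin or S100a8 and S100a9 named above, Igkv12-46 led most instead. It led 13 cells, 8 of them in run 6, with a median of 27 UMIs where it led. Igkv1-110 led 11 cells in 7 runs and had the most Igkv UMIs, 1936, of which 613 were in 1 cell. Igkv12-44 led 11 cells, Igkv5-39 9, and Igkv1-135, Igkv3-2 and Igkv3-1 8 each. All 8 cells led by Igkv3-1 were in run 8. By family, Igkv3 led 30 cells (14.9%), Igkv12 28, Igkv4 27 and Igkv1 25. Igkv4 was 21.5% of the rows and led 13.4% of the cells, while Igkv1 was 7.59% of the rows and held 21.9% of the Igkv UMIs. The 26 rows nearest Igkc, the middle 26 and the farthest 27 led 29.7%, 36.1% and 34.2% of the cells. By UMIs the farthest 27 held 48.9%, against 24.5% for the nearest and 26.6% for the middle 26, and the farthest 29 Ighv rows held 46.9% of Ighv UMIs.

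**Figure D5:**
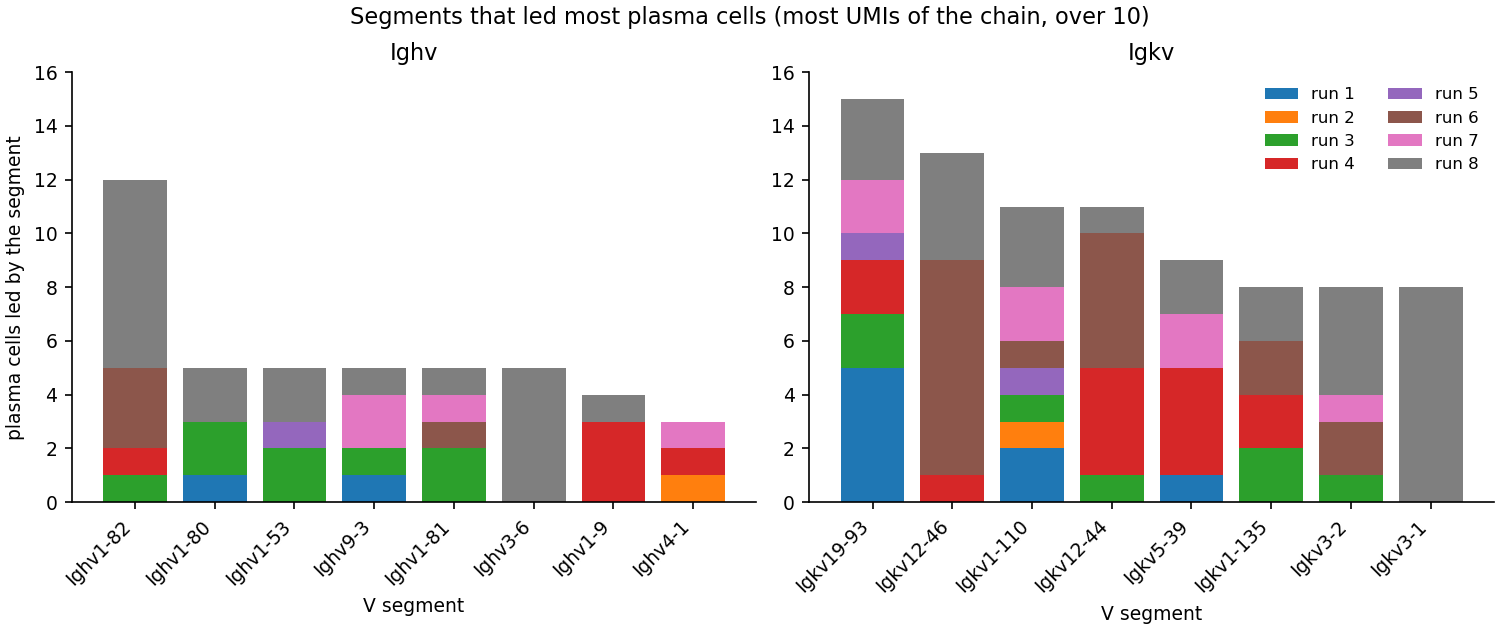
Plasma cells (y axis) led by each of the 8 Ighv and 8 Igkv segments that led most (x axis), coloured by run. Ighv1-82 led 12 cells, 7 of them in run 8, and the 8 cells of Igkv3-1 and the 5 of Ighv3-6 were all in run 8.

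Some rows have near copies, between which reads could have been split, so their counts are uncertain. The reads were not examined. The nearest member to Ighv1-82 was Ighv1-80, 96.1% identical, and 1 of the 12 cells with over 10 Ighv1-82 UMIs had an Ighv1-80 UMI. The nearest to Igkv1-110 was Igkv1-117, 96.8% identical, and 7 of 11 such cells had a UMI of it. Igkv12-46 and Igkv12-44 were 94.6% identical, and 3 of the 13 cells over 10 for Igkv12-46 had an Igkv12-44 UMI. Of the 169 rows 14 are annotated as pseudogenes. Pseudogene rows led 3 cells, 1 each for Ighv1-14, Ighv1-2 and Ighv1-28. Ighv1-62 and Ighv1-41 had 50 of 52 and 75 of 76 UMIs outside plasma cells, most of them in neutrophils (36 and 71 UMIs). Plasma cells held only 7438217 of all 248384567 UMIs, so these counts alone show no depletion there. Ighv1-62 was 0.269 CPM in plasma cells and 0.208 CPM in all other cells. Ighv1-41 was 0.134 and 0.311 CPM, on 1 plasma cell UMI. These pseudogenes were chosen after their values were seen.

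Evenness is the Shannon entropy of cells per leading segment divided by its maximum for the segments in use, so that 1 is equal use. In the 5 runs with at least 20 plasma cells (3, 4, 6, 7 and 8) it was 0.977, 0.960, 0.941, 0.976 and 0.914 for Ighv, and 0.959, 0.952, 0.917, 0.976 and 0.935 for Igkv. In runs 3, 4, 6 and 7 there were almost as many Ighv segments as cells, so values near 1 follow from the small numbers. The 5 runs had 14, 12, 9, 7 and 35 cells with an Ighv call, on 11, 10, 7, 6 and 20 segments. Of these cells, 8, 9, 6, 5 and 13 had a segment that no other cell of the run had. For Igkv there were 34, 35, 44, 10 and 55 cells, on 22, 23, 23, 6 and 26 segments. By summed UMIs in place of cells, evenness was 0.886, 0.907, 0.786, 0.725 and 0.832 for Ighv and 0.795, 0.821, 0.850, 0.644 and 0.794 for Igkv. Drawn down to 7 cells, a run would hold 6.31, 6.20, 5.67, 6 and 5.94 different Ighv segments, a range of less than 1 segment. Drawn down to 10 cells, it would hold 8.75, 8.72, 8.10, 6 and 8.40 Igkv segments. Run 7, with the highest Igkv evenness, thus had the fewest segments for its number of cells. The leading Ighv segments of these runs were Ighv1-53, Ighv1-80 and Ighv1-81 with 2 cells each, Ighv1-9 with 3, Ighv1-82 with 3, Ighv9-3 with 2 and Ighv1-82 with 7. For Igkv they were Igkv1-122 with 4, Igkv12-44 and Igkv5-39 with 4 each, Igkv12-46 with 8, Igkv1-110, Igkv19-93, Igkv5-39 and Igkv6-23 with 2 each, and Igkv3-1 with 8.

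Run 8 gave most of the pairs of cells that shared an Ighv segment within a run. It also held most of the within-run pairs with an Ighv call, 595 of 867. For Igkv it held 1485 of 3759 such pairs, so its counts of shared pairs are not a difference between the chains. Of all pairs of cells with an Ighv call, 5.42% had the same leading segment within runs (47 of 867) and 2.89% between runs (96 of 3319). Run 8 gave 36 of the 47 (6.05% of its 595 pairs), and the other runs with at least 20 plasma cells had 3.30%, 4.55%, 8.33% and 4.76%, on 3, 3, 3 and 1 pairs. Run 1 had 1 of 55. Without run 8 the Ighv share within runs was 4.04%. For Igkv the share was 4.42% within runs (166 of 3759) and 2.43% between (402 of 16542). Run 8 gave 62 of the 166 (4.18% of its 1485 pairs) and run 6 gave 51 (5.39% of its 946). Pairs of cells share cells, so no test was made.

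Heavy and kappa segments were also read together. Both were over 10 UMIs in 81 cells, which held 69 different combinations. Within runs, 9 combinations were found in more than 1 cell, covering 20 of the 81 cells (24.7%, 15.8 to 35.5%) in 4 runs. The same combination was found in 13 of 704 pairs of cells within runs (1.85%), against 2 of 2536 between runs (0.0789%). All 13 within-run pairs also had the same main heavy chain class, against 227 of 691 (32.9%) pairs of cells with different combinations. Ighv1-82 with Igkv3-1 was found in 3 cells of run 8, with 39, 23 and 20 Ighv1-82 UMIs, and 92, 74 and 33 Igkv3-1 UMIs, all of IgG2b. Ighv3-6 with Igkv3-1 was found in 3 other cells of run 8, with 26, 15 and 11 and with 22, 20 and 17 UMIs, all of IgG2c. Iglv1 was 26 to 153 UMIs in the first 3 and 1 to 2 in the other 3.

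A looser definition, at least 3 UMIs and at least 60% of the chain for both segments, raised this to 191 cells and 141 combinations, 27 of them shared within a run by 69 cells (36.1%). Ighv1-82 with Igkv3-1 then had 5 cells, all of IgG2b. Ighv1-82 with Igkv12-46 had 4 cells of run 6, all of IgA, and Ighv8-4 with Igkv6-13 had 4 cells of run 6, 3 of IgG2b and 1 of IgA. Ighv1-72 with Igkv3-10 had 4 cells of run 8, 2 of IgM, 1 of IgA and 1 of IgG3. Ighv1-14 with Igkv19-93 had 3 IgM cells of run 1. Under this definition 48 of 63 within-run pairs with the same combination shared a class (76.2%), against 27.2% of pairs with different combinations. Ighv1-82 itself was not tied to 1 partner: in 23 such cells of 4 runs it stood beside 10 different Igkv segments. Igkv3-1 had 3 partners in its 9 cells, all in 1 run, and Igkv1-110 had 9 partners in 9 cells of 7 runs. None of the cells in these shared combinations was a shallower copy of a repeated barcode. Joining sequences, which would tell cells of 1 clone from cells that chose the same segments, were not analysed here.

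Of the 13 cells with 2 Igkv segments over 10, 7 are given here. In run 4, 3 IgM cells had both Igkv12-44 (118, 42 and 246 UMIs) and Igkv5-39 (39, 61 and 78 UMIs). All 3 had Ighv1-26 as their only counted Ighv (2, 6 and 6 UMIs). In run 1, 1 cell had 452 UMIs of Igkv1-110 and 295 of Igkv9-120 beside 4 of Ighv1-26, and segments that are 60.7% identical. In run 4, another had 91 of Igkv14-126 and 69 of Igkv3-10, and in run 7, another had 88 of Igkv5-48 and 67 of Igkv3-2. The cell of run 8 with 64 of Igkv1-110 and 45 of Igkv1-117 had near copies, 96.8% identical. Heavy segments were doubled in a cell of run 1 with 55 UMIs of Ighv1-66 and 39 of Ighv1-14 and a single leading Igkv. A cell of run 8 had 24, 20, 14 and 13 UMIs of Ighv1-39, Ighv1-33, Ighv1-42 and Ighv1-26. Whether any of these droplets held more than 1 cell was not tested. Segments in this paragraph were chosen after their values were seen.

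V segments also tracked repeated barcodes. Of the 36 plasma cells with a shared barcode, 30 were the deepest cell of that barcode, and 55 other cells carried the same barcodes with a median of 666 UMIs, 49 of them in runs 1 to 3. An Igkv UMI was found in 16 of the 55, and in 15 of these the segment on top was the leading Igkv of the deepest cell. The other 6 shared plasma cells were shallower copies with 599 to 9428 UMIs, and none had a V segment over 10. How the copies arose was not tested.

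Compared with all other cells, V segments were high in plasma cells, which were chosen by antibody-secretion genes. Of 169 members 36 reached 20 CPM in either set, all 36 through plasma cells, and all 36 were at least 2-fold higher there after 10 CPM was added to both levels. Of all 5022 genes tested, 6.31% were higher and 44.2% were lower. Because these members passed the level only through plasma cells, the count supports nothing. The median log2 ratio over all 169 was 0.43, against -0.06 over all 19669 genes. At 0 in plasma cells were 12 Ighv and 10 Igkv members, which allows up to 3 UMIs, or 0.403 CPM.

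An Ighv UMI was found in 89.0% of plasma cells, against 28.6% of the 587 B cells (Ms4a1 and Cd79a present, Jchain under 5) and 0.482% of erythroid cells. An Igkv UMI was found in 94.5% of plasma cells, against 35.8% of B cells and 1.35% of erythroid cells. The same heavy segment, Ighv1-82, had most Ighv UMIs in both, 358 of 3080 in plasma cells (11.6%) and 22 of 250 in B cells (8.80%). Among Igkv, Igkv1-110 had most in plasma cells (10.96%), whereas Igkv10-96 had most in B cells (64 UMIs, 16.3%), 56 of them in 1 cell. In pre-B cells (126 cells, by Vpreb1 and Igll1) there were 57 Ighv and 27 Igkv UMIs, of which Igkv19-93 had 11. Only 8 cells outside the plasma cells had a V segment over 10 UMIs, and all 8 had at least 1873 Igkc UMIs.

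The recombinase that cuts at V segments was not counted in plasma cells, while the enzymes that join the ends were. Rag1 and Rag2, its subunits, had 0 UMIs there, which allows up to 0.403 CPM. All other cells had 2.54 CPM of Rag1 (611 UMIs) and 0.398 CPM of Rag2 (96 UMIs). For Rag2 that level lies within what 0 UMIs allow, so no difference can be read. Dntt, which adds bases at the joints, had 0.403 CPM in plasma cells (3 UMIs), against 18.1 CPM (4350 UMIs). The end-joining genes Xrcc4 and Lig4 had 7.26 and 3.50 CPM in plasma cells, against 6.39 and 1.54 CPM in all other cells. The other end-joining genes of the list had lower CPM in plasma cells. Constant regions were 52.8% of plasma cell UMIs, which lowers the CPM of every other gene there. The levels in this paragraph were not rescaled for that. Small differences and similar levels, such as those of Xrcc5 and Vpreb3, therefore depend on the totals used. Xrcc5, Xrcc6 and Prkdc had 5.92, 5.51 and 2.82 CPM there, against 6.53, 20.9 and 10.6 CPM. Dclre1c and Nhej1 had 4.30 and 1.34 CPM, against 16.4 and 6.74 CPM. Of the 18 genes of rearrangement and diversification 5 reached 20 CPM, of which 0 were higher and 3 were lower (Hmgb1, Hmgb2 and Apex1), beside the 44.2% of all genes that were lower. Of the surrogate light chain, Vpreb1, Vpreb2 and Igll1 had 2, 1 and 1 UMIs in plasma cells, while Vpreb3 had a similar level in plasma cells (35.6 CPM) and in all other cells (36.7 CPM). The plasma cell regulators Prdm1, Xbp1 and Irf4 were 68.0, 875 and 93.7 CPM in plasma cells and 4.18, 53.8 and 9.06 CPM in all other cells. Ebf1, a B cell regulator, was 4.84 and 61.6 CPM.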

How the data were processed

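Erythroblastic island cells of 8 mouse libraries were profiled by single-cell RNA sequencing. The deposited file holds raw UMI counts, 1 row per gene and 1 column per cell, with no normalisation by the authors. Cell Ranger 5.0.0, Seurat 3.1.5 and mm10 are listed in the submitters' processing notes. How the authors filtered cells is not given in the sources used here. Columns carry no library, so the planned comparison of transgenic with control libraries was not made. Runs of sorted barcodes stand for unnamed libraries.

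Members were matched by symbol. The rules for plasma cells, for segments over 10 UMIs and for named genes, and all lists, were chosen with earlier results of these data known. Named were the 8 Ighv and 8 Igkv leading most cells, every Iglv, each run's leading segments, the 5 most shared pairs and the 3 highest counts in 1 cell. Other named segments were chosen after their values were seen. No cells were removed as doublets. Levels are counts summed over cells and scaled to CPM; between cell sets, 10 CPM was added and genes of at least 20 CPM in either set were read. B cells had Ms4a1, at least 3 Cd79a UMIs and no Vpreb1 or Igll1, pre-B cells at least 2 of Vpreb1 and Igll1, erythroid cells at least 20% globin and neutrophils at least 100 of S100a8 and S100a9. Shares have exact Clopper-Pearson 95% intervals. Genes and sequences are from GENCODE M21 (GRCm38). Python 3.11.15, numpy 2.4.6, scipy 1.17.1, pandas 2.3.3 and Biopython 1.88 were used, and the calculations were checked on simulated data.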

Additional observations from a re-analysis of the deposited data

How the results depend on the processing

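No paired analysis was possible because the columns carry no library or replicate, and the comparison of transgenic with control libraries was not run. For 13 results, 70 of 85 alternatives stayed within a set limit. This was the interval or spread of the reported value, or, for counts of cells and segments, 1.5 times. Leaving out each run in turn moved 1 of 104 values. Such sets share most cells with the full set, and some spreads were wide. The V count per plasma cell was 64.5 UMIs with a standard deviation of 43.6 over runs. These tallies are therefore a weak check. Cells with 1 heavy and 1 light segment were 27.6% as reported, 47.9% with segments over 5 UMIs, 9.31% over 20, and 22.5 to 37.1% with 1 run left out, the highest without run 6. If each cell's light chain was read from its leading V segment, 33.8% of cells were led by lambda (41.1% without mixed droplets), whereas the constant regions gave 3.45%. Evenness, as a median over runs, was 0.960 for Ighv. It was 0.932 with no minimum for the leading segment, 0.908 by shares of the chain per cell, 0.832 by summed UMIs and 0.917 without mixed droplets. For Igkv it was 0.952, against 0.865 by shares and 0.795 by summed UMIs. Kappa cells with Iglv1 were 55.2% over 10 UMIs, 65.9% over 5 and 36.0% over 20, and 49.0 to 61.1% with 1 run left out. Cells in a shared pair were 24.7%, and 36.1% under the looser definition. V segments higher in plasma cells numbered 36, against 60 with no minimum level and 67 with immunoglobulin and globin genes left out of the totals. The last 2 differ because more segments were tested or all levels were scaled up. Mixed droplets are plasma cells with over 20% globin or at least 20 S100a8 and S100a9 UMIs. Depth limits the calls: a V segment was a small part of a plasma cell's RNA, and cells without a call are not cells without a segment. Missing rows limit them too. The table had rows for 87 of 183 annotated Ighv and 79 of 160 annotated Igkv segments, pseudogenes included. A segment without a row could not be called at any depth, and shares of rows leave such segments out. The definitions by constant region, shared pair and Iglv1 count, and the looser pair definition, were added after the data were seen, as was leaving out shallower copies of a barcode, which changed no result beyond its interval or spread.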
